A study of Mus musculus with 27 samples.

Results

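Genes of GABA receptor subunits were followed in whole mouse retina over 7 ages, from embryonic day 14 (E14) until postnatal day 60 (P60). The genes were Gabra2, Gabra3 and Gabra4 (alpha subunits), Gabrb1 and Gabrb2 (beta subunits) and Gabrr1 and Gabrr2 (rho subunits). They were found by symbol in the deposited expression table, and of repeated entries for a symbol the one with the larger mean was kept. They made up 7 of the 38168 features listed, and all 7 passed the filter on low values. The question was whether the subunits of a class replace each other as the retina matures.

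The table held 27 libraries of total RNA from whole retina of wild type C57BL/6J mice, with no treatment. E14, E17 and P6 had 3 libraries, P1, P15 and P28 had 4, and P60 had 6. The labels give 3 retinas for each library, whereas the methods describe pools of several embryos or of at least 3 postnatal mice, and at P60 2 pools and 4 single mice that are not told apart. Males were used after P1 and mixed sexes up to P1. Sex and age therefore cannot be told apart at the step from P1 to P6. The same holds for every comparison of E14 and E17 with P15, P28 and P60. Values are CPM, the reads of a feature after scaling of each library to the same total.

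GABA is the main inhibitory transmitter of the inner retina, released largely by amacrine cells. It opens GABA-A receptors, chloride channels built of 5 subunits that usually combine alpha, beta and gamma subunits, and the alpha and beta types present set the kinetics and drug sensitivity of the channel. The rho subunits form channels of their own, long called GABA-C receptors, which close slowly, resist the classic GABA-A blocker bicuculline and are known above all from the axon terminals of retinal bipolar cells.

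Gabrr1 and Gabrr2 are neighbours on chromosome 4 and are read in the same direction. In the GENCODE annotation of GRCm38, Gabrr2 spans chr4:33062999-33095865 and Gabrr1 spans chr4:33132521-33163588, which leaves 36.655 kb between them. The sequences below are shown because the 2 genes, although adjacent, came up at different ages. They are the 250 bases before the start site in the promoter table of RefSeq, which lies 113 bases inside the GENCODE span for Gabrr2 (at 33063112) and 35 bases inside it for Gabrr1 (at 33132556), so that the last bases of each stretch belong to the GENCODE gene. They are on the plus strand of GRCm38.p6, at chr4:33062862-33063111 for Gabrr2 and chr4:33132306-33132555 for Gabrr1. Capitals mark, on either strand, the letters TAATCC of photoreceptor and bipolar homeodomain factors, the GC box GGGCGG, the TATA box TATAAA and the CCAAT box.
Gabrr2: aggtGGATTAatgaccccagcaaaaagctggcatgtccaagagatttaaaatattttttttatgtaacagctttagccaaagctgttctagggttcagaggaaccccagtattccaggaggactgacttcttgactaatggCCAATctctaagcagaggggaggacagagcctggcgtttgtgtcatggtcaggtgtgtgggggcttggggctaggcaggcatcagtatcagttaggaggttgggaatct
Gabrr1: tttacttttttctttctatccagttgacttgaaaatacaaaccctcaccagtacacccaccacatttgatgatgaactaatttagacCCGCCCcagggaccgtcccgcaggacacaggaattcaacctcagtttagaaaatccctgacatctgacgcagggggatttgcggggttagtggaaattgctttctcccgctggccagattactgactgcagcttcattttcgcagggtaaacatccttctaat
With the first 50 bases after that start site included, the Gabrr2 window held 1 TAATCC, starting at position -246 from it (-133 from the GENCODE start), and 1 CCAAT, and the Gabrr1 window held neither. The Gabrr1 window held 3 GGGCGG, of which 2 overlap each other, and the Gabrr2 window held none. TATAAA occurred in neither, and the looser CANNTG occurred 3 times for Gabrr1 and 1 time for Gabrr2. Of 32851 RefSeq promoter windows of this length, 7.06% held TAATCC, 37.4% CCAAT, 35.7% GGGCGG, 13.6% TATAAA and 72.3% CANNTG. A match describes these letters only.

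Libraries held 7076646 to 11330762 reads on listed features, and 3 reads, taken as the limit of detection of a count of 0, corresponded to 0.265 to 0.424 CPM. All 8 bipolar and 6 amacrine markers looked for in this retinal tissue were listed. Summed over 2 of 4 lens markers that were listed, levels stayed at or below 4.54 CPM, and the retinal pigment epithelium sum reached 74.4 CPM at P15. At P60 the libraries were less alike than at other ages, and 3 of the 6 (replicates 1, 2 and 6) correlated better with the P28 libraries on average than with the other P60 libraries.

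The rho subunit genes were almost silent until P1 and then rose steeply, Gabrr1 between P1 and P6 and Gabrr2 between P6 and P15. Gabrr1 rose by 5.87 ± 0.10 on the log2(CPM + 1) scale (SE) from embryonic (E14 and E17, 6 libraries) to mature retina (P15, P28 and P60, 14 libraries), and Gabrr2 by 4.43 ± 0.12. Both were past the threshold for a call, an adjusted p under 0.05 and a log2 change of at least 1 (adjusted p = 1.68e-30 and 1.85e-25, limma). Since the scale adds 1 CPM, it understates the change of genes this low.

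Gabrr1 encodes the rho1 subunit, which can form a channel alone. Its level was 0.10, 0.211 and 0.316 CPM in the E14 libraries, 0.409, 0 and 0 at E17, and 0.123, 0.378, 0.113 and 0.473 at P1, which is 0 to 4 reads in a library. At P6 it was 35.6, 29.5 and 22.9 CPM, at P15 63.4, 62.8, 57.9 and 50.6, and at P28 75.8, 76.1, 66.6 and 64.5. At P60 the lowest, median and highest values were 58.4, 74.9 and 78.8 CPM. No library up to P1 reached 1 CPM and every library from P6 on was above 20 CPM, so the groups on either side of that step did not overlap. The step from P1 to P6 was 4.57 ± 0.16 (adjusted p = 5.30e-21), and on pooled reads the level was 109-fold higher at P6 (95% interval 56.9 to 239, counting error only, 691 against 9 reads). From P6 to P15 the difference was 0.99 ± 0.16 (adjusted p = 7.53e-06), just under the minimum change. It passed that minimum with median-of-ratios scaling (1.06), with edgeR (1.07), with a pseudocount of 0.1 (1.02) and when P6 replicate 1, P6 replicate 2 or P15 replicate 4 was left out (1.01 to 1.14). Later steps were small (P28 against P15 0.27, adjusted p = 0.430, and P60 against P28 0.03, adjusted p = 0.901).

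Gabrr2 encodes rho2, which combines with rho1. It stood at 0.200, 0.105 and 0.211 CPM in the E14 libraries, at 0.409, 0.706 and 0.828 at E17, and at 0.245, 0.630, 0.226 and 0.118 at P1. At P6 it was 0.848, 0.973 and 1.10 CPM (6 to 9 reads a library), and at P15 it was 21.9, 19.9, 21.8 and 25.8 CPM. Values were 29.6, 27.2, 25.0 and 25.5 CPM at P28, and the lowest, median and highest at P60 were 29.7, 42.8 and 51.1. The 3 P6 libraries lay above every P1 library but far below every P15 library. The step from P6 to P15 was 3.56 ± 0.18 (adjusted p = 4.26e-16), and 22.9-fold on pooled reads (95% interval 15.1 to 36.3, 682 against 23 reads). The step from P1 to P6 was 0.61 ± 0.18 (adjusted p = 0.00785), under the minimum change, at 3.26-fold on pooled reads (95% interval 1.49 to 7.67, 23 against 10 reads). With edgeR and with a pseudocount of 0.1 this step passed (log2 1.70 and 1.55), and with the latter so did E17 against E14 (1.44), where Gabrr2 had 1 to 8 reads a library. From P28 to P60 Gabrr2 was higher by 0.55 ± 0.15 (adjusted p = 0.0211), under the minimum change.

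**Figure D1:**
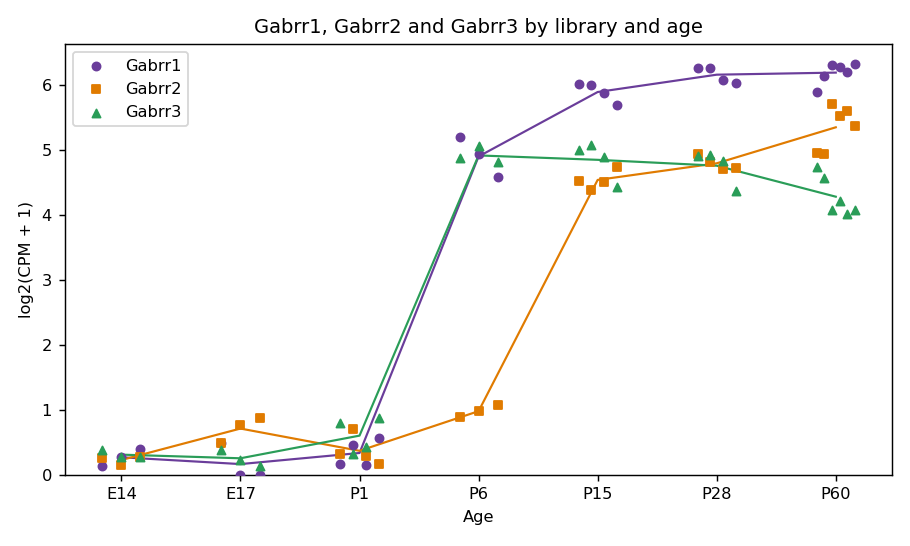
Levels of the rho subunit genes Gabrr1, Gabrr2 and Gabrr3 as log2(CPM + 1) in each library (points) by age, with lines through the age means. Gabrr1 and Gabrr3 rose between P1 and P6, whereas Gabrr2 was at 0.848 to 1.10 CPM in the P6 libraries and rose by P15.

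Gabrr3, the remaining rho gene, which lies on chromosome 16, rose with Gabrr1 (P6 against P1 4.31 ± 0.19, adjusted p = 3.69e-18) and averaged 29.3 ± 2.7 CPM at P6 (SD, n = 3) and 18.8 ± 4.3 at P60 (n = 6). Levels of different genes were compared per kilobase of exon sequence, with exon lengths from GENCODE rather than from the authors' annotation. On that scale the 3 rho genes summed to 20.2 ± 2.9 CPM per kb at P6, 42.9 ± 2.8 at P15 and 55.4 ± 6.2 at P60. Of the sum, Gabrr1 held 63.2% ± 5.0 at P6 and 57.3% ± 2.6 at P60. The share of Gabrr2 was 2.36% ± 0.67 at P6, 25.0% ± 4.4 at P15 and 34.5% ± 4.3 at P60, and that of Gabrr3 went from 34.4% ± 4.4 to 8.22% ± 3.0. Before P6 these genes had too few reads for shares to be read.

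A switch within a class should change the ratio of its members. Gene length cancels in the change of such a ratio between ages, though not exactly where 1 CPM is added to low values. The log2 ratio of Gabrr1 to Gabrr2, each with 1 CPM added, was 3.51 to 4.31 at P6 and 0.61 to 1.61 in mature libraries. Up to P1 both genes were under 1 CPM with 0 to 8 reads a library, so that the added 1 CPM holds the ratio near 0, and no comparison with those libraries was read. In a comparison with P6 alone, chosen after the values were seen, the mature ratio was lower by 2.78 (two-sided exact permutation p = 0.00147 over libraries, the smallest that 14 against 3 libraries allow). Per length, Gabrr1 stood 19.1 to 38.7 times as high as Gabrr2 at P6, 1.80 to 2.91 times at P15 and 1.41 to 2.16 times at P60. Libraries within a window differ in age as well as in animals, and that spread is part of these tests.

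Summed bipolar cell markers rose at the same ages, although not each marker did. The sum of the 8 markers was 29.6 to 33.8 CPM in E14 libraries, 54.1 to 56.9 in those of E17 and 85.9 to 94.0 in those of P1. It was then 645 to 867 CPM in P6, 1681 to 1723 in P15, 1513 to 1598 in P28 and 1413 to 1870 in P60 libraries. Grm6, the glutamate receptor of ON bipolar cells, was at 0 to 0.591 CPM in the P1 libraries and at 122 to 163 CPM at P6. Against the sum, Gng13 was lower at P6 than at P1 (means of 1.05 and 2.66 CPM). Vsx1 was lower at P15 than at P6 (means of 28.5 and 52.4 CPM). The timing was not particular to bipolar markers. Summed rod markers averaged 79.5 CPM at P1, 2412 at P6 and 15605 at P15, and summed cone markers 58.8, 114 and 313. The part of bipolar cell number in the rho levels was not tested, and in whole retina fewer cells of a type and less RNA per cell cannot be told apart.

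All 3 alpha genes were higher in mature than in embryonic retina, but by different routes. Gabra2 had most of its rise between E14 and E17, Gabra4 rose between P6 and P15, and Gabra3 moved least. Between mature and embryonic retina the log2 difference was 1.28 ± 0.09 for Gabra2 (adjusted p = 4.94e-14), 2.13 ± 0.11 for Gabra4 (adjusted p = 3.88e-17) and 0.89 ± 0.09 for Gabra3 (adjusted p = 2.04e-10). The last is under the minimum change, although edgeR placed it at 1.03.

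Gabra2 (chr5:70957597-71095849) encodes alpha2, a subunit typical of young neurons. Its level was 5.90, 6.01 and 7.37 CPM at E14 and 26.0, 27.8 and 27.96 at E17. It was 37.8, 29.4, 38.9 and 37.7 CPM at P1, 39.0, 36.8 and 38.6 at P6, and 43.8, 45.2, 44.4 and 46.9 at P15. At P28 it was 36.2, 31.5, 37.5 and 28.3 CPM, and at P60 the lowest, median and highest were 20.2, 25.0 and 36.9. The E14 libraries lay below all others, but E17 and mature libraries overlapped, and the P60 mean (27.3 CPM) was close to that of E17 (27.2). Only the step from E14 to E17 was called (1.93 ± 0.15, adjusted p = 2.47e-11), a ratio of means of 4.24. After the highest mean at P15 the values were lower by 0.43 ± 0.13 at P28 (adjusted p = 0.0780) and by a further 0.30 ± 0.12 at P60 (adjusted p = 0.0921), neither past the threshold. Summed amacrine markers ran from 94.7 to 113 CPM at E14 and 471 to 536 at E17. Most of the sum was Tfap2b (means of 76.8 and 387 CPM), while Slc6a9 had means of 8.07 and 10.8 CPM and Th 0.834 and 0.226. The sum was 679 to 828 CPM at P1 and 431 to 490 at P15, where Gabra2 had its highest mean. The part of amacrine cells in the Gabra2 step was not tested.

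Gabra3 (chrX:72432681-72656848) encodes alpha3, which is found at amacrine and bipolar cell synapses. It was at 17.4, 19.7 and 18.2 CPM at E14, 14.3, 17.6 and 11.7 at E17, and 15.5, 13.9, 13.1 and 19.6 at P1. It was at 25.1, 29.7 and 26.2 CPM at P6, 33.9, 28.8, 31.3 and 30.1 at P15, 30.9, 37.6, 31.7 and 29.7 at P28, and at P60 28.7 at the median with a range of 25.3 to 37.8. All libraries from P6 on lay above all earlier ones. The difference at that step was 0.78 ± 0.14 (adjusted p = 3.97e-05), under the minimum change, and all other steps had adjusted p values of 0.184 or more. Gabra3 is X-linked and the sexes changed from mixed to male at this step, so that age and sex cannot be told apart there. Nor can they be told apart in its difference between embryonic and mature retina.

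Gabra4 (chr5:71569749-71658308) encodes alpha4, a subunit of receptors outside synapses in the brain, and had the lowest level of the 3 at every age per kilobase of exon. It was at 0.949 to 1.58 CPM at E14, 1.66 to 3.17 at E17, 2.14 to 3.39 at P1 and 4.22 to 5.51 at P6. The P15 libraries stood at 13.8, 15.9, 12.7 and 13.3 CPM, the P28 libraries at 11.1, 10.5, 11.9 and 12.7, and those of P60 at 6.90 to 10.2 with a median of 7.47. Every P15 library was above 2 times the highest P6 value. The step from P6 to P15 was 1.40 ± 0.18 (adjusted p = 2.07e-07), and P6 against P1 (0.62, adjusted p = 0.00602) and E17 against E14 (0.60, adjusted p = 0.0396) were under the minimum change.

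Per length, the makeup of the 3 alpha genes changed most between E14 and E17. The shares below are of the sum of these 3 only, since the other alpha genes were left out of it. Gabra3 held 81.9% ± 2.6 of the sum at E14 (SD, n = 3), 48.1% ± 4.9 at E17, 43.3% ± 4.7 at P1, 49.1% ± 2.5 at P15 and 61.4% ± 6.6 at P60. Gabra2 held 14.7% ± 1.7 at E14, 46.9% ± 5.4 at E17, 51.8% ± 4.1 at P1, 36.7% ± 1.6 at P15 and 28.4% ± 6.3 at P60. Gabra4 went from 3.47% ± 0.91 at E14 to 6.08% ± 1.1 at P6 and 14.2% ± 1.5 at P15, and did not exceed 16.5% in a library. The sum itself was 5.74 ± 0.31 CPM per kb at E14 and 16.1 ± 0.36 at P15. The level of Gabra3 alone was 4.70 CPM per kb at E14, 3.71 at E17 and 3.95 at P1, and it was 7.91 at P15, where its share was also below that of E14.

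**Figure D2:**
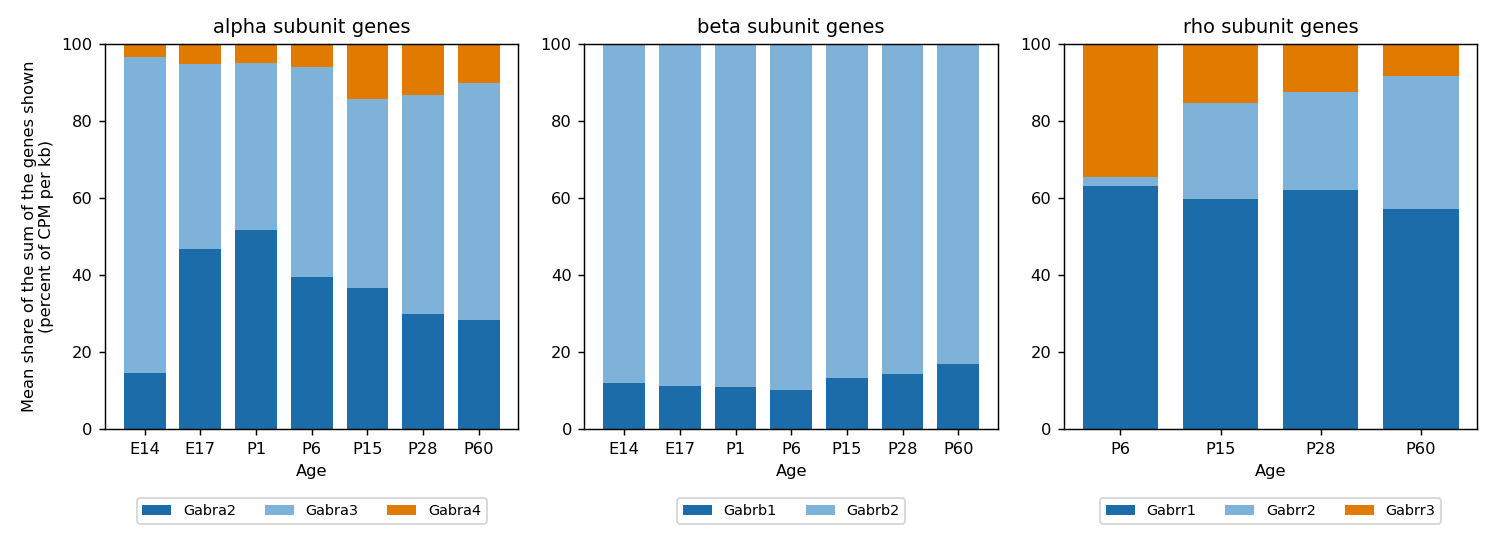
Mean share of each gene in the summed level of the genes shown, as percent of CPM per kilobase of exon, by age, for 3 alpha, 2 beta and (from P6 on) 3 rho subunit genes. Gabra3 held 81.9% of the alpha sum at E14 and Gabra2 51.8% at P1, Gabrb2 held over 82% of the beta sum at every age, and Gabrr2 held 2.36% of the rho sum at P6.

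The ratios showed the same order. Per length, Gabra2 stood at 0.157 to 0.208 times Gabra3 at E14, 0.809 to 1.23 times at E17, 0.987 to 1.52 times at P1 and 0.338 to 0.748 times at P60. The log2 ratio of Gabra2 to Gabra3 in mature retina was lower than at P1 and P6 by 0.79 (adjusted p = 0.00132, exact permutation test), with some overlap of the libraries. Against the embryonic libraries, which held both extremes (-1.56 to 1.19), it did not differ detectably (0.35, adjusted p = 0.386). The ratio of Gabra2 to Gabra4 was lower in mature retina than in embryonic (-0.83, adjusted p = 0.00369, exact permutation test). At E14 it was 1.70 to 1.85, within the mature range of 1.10 to 2.26, and at E17 it was 2.69 to 3.45. Against P1 and P6 libraries it was also lower in mature retina (-1.504, adjusted p = 8.60e-05, exact permutation test), without overlap. The ratio of Gabra3 to Gabra4 was lower in mature retina than in embryonic (-1.18, adjusted p = 0.000258, exact permutation test). It was also lower than in P1 and P6 libraries (-0.72, adjusted p = 0.00131, exact permutation test). Within the mature ages this ratio had means of 1.10 at P15, 1.41 at P28 and 1.83 at P60. Gabra4 was at 0.949 to 3.17 CPM in embryonic libraries, where the added 1 CPM narrows both ratios to it. Over the alternatives run, the mature against embryonic difference was -1.28 to -0.62 for Gabra2 to Gabra4. For Gabra3 to Gabra4 it was -1.67 to -1.02.

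**Figure D3:**
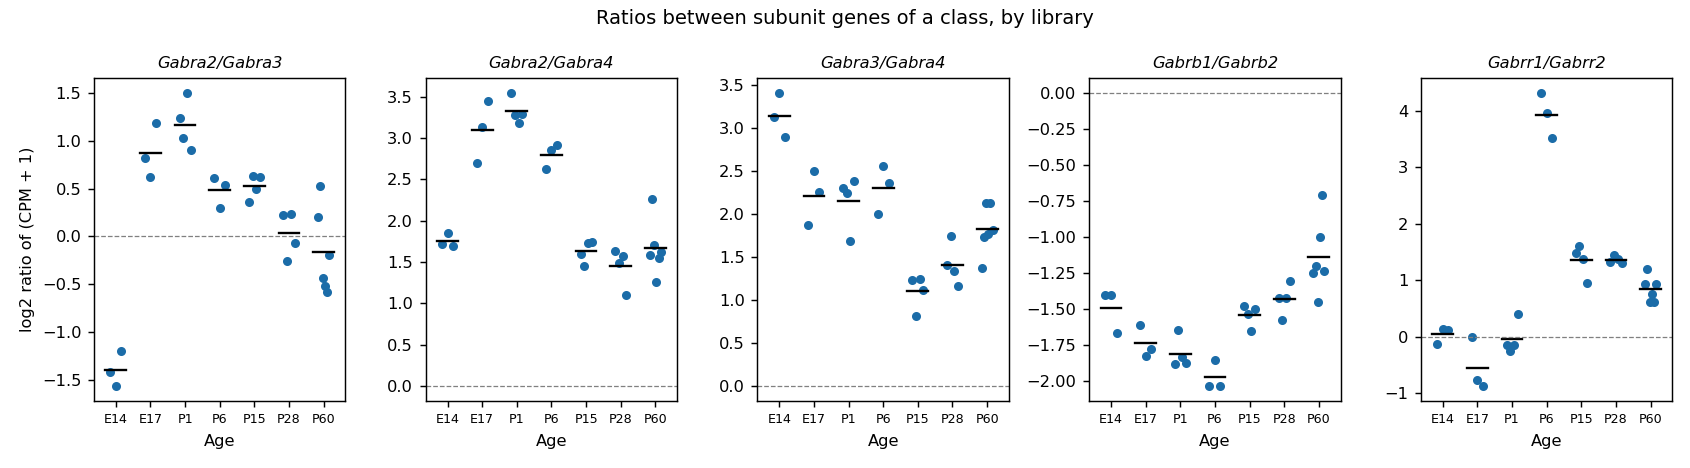
Log2 ratio of (CPM + 1) between 2 subunit genes of a class in each library (points) with age means (black bars); the dashed line marks equal CPM. The ratio of Gabra2 to Gabra3 went from -1.56 to -1.20 at E14 to 0.91 to 1.499 at P1, and that of Gabrr1 to Gabrr2 was 3.51 to 4.31 at P6; up to P1 both of the latter genes were under 1 CPM and their ratio is not read.

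Gabrb1 and Gabrb2 both rose, Gabrb1 in steps spread from E14 to P15 and Gabrb2 mainly in steps up to P6. The ratio between them moved by 0.28 and 0.54 on the log2 scale in the comparisons made. The mature level was higher by 2.37 ± 0.11 for Gabrb1 (adjusted p = 7.05e-19) and by 2.13 ± 0.11 for Gabrb2 (adjusted p = 3.83e-18). Beta subunits form part of the GABA binding site.

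Gabrb1 (chr5:71658113-72149037) was at 3.80, 2.85 and 3.05 CPM at E14, 7.46, 7.15 and 7.66 at E17 and 12.5, 10.8, 12.3 and 13.8 at P1. It reached 20.2, 21.5 and 20.1 CPM at P6, 36.0, 35.7, 30.9 and 30.7 at P15 and 37.2, 30.6, 31.5 and 34.9 at P28, and at P60 its lowest, median and highest values were 14.2, 24.9 and 32.1. Up to P15 the libraries of each age lay above all those of the age before. Each of these 4 steps had an adjusted p under 0.05 and a log2 difference between 0.66 and 0.9987, under the minimum change. E17 against E14 was so close to it that it passed with edgeR (1.17), with a pseudocount of 0.1 (1.18) and without E14 replicate 1 (1.09) or E17 replicate 2 (1.02). Gabrb1 and Gabra4 lie head to head and share 196 bases on opposite strands. Whether strand was used in counting is not given in the sources used here, so that reads from those bases could belong to either gene.

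Gabrb2 (chr11:42419757-42629028) was at 11.7, 9.18 and 11.9 CPM at E14, 24.9 to 28.7 at E17 and 48.9, 36.2, 46.5 and 53.6 at P1. It was at 86.0, 80.5 and 85.6 CPM at P6, 102, 106, 99.4 and 88.7 at P15 and 102, 93.2, 86.2 and 88.0 at P28, and at P60 it had a lowest, median and highest value of 40.7, 50.1 and 78.0. The ages did not overlap up to P15, and all 6 P60 libraries lay below all P28 libraries. The step from E14 to E17 was called (1.25 ± 0.18, adjusted p = 2.95e-06), while P1 against E17 (0.73, adjusted p = 0.00256) and P6 against P1 (0.86, adjusted p = 7.30e-05) were under the minimum change. P15 against P6 did not differ detectably (0.23 ± 0.16, adjusted p = 0.299, limma).

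Per length, Gabrb2 held 88.0% ± 1.3 of the sum of both genes at E14 (SD, n = 3), 89.9% ± 0.69 at P6 and 83.0% ± 2.7 at P60 (n = 6). Gabrb1 stood at 0.108 to 0.277 times Gabrb2 in all libraries per length. The log2 ratio of Gabrb1 to Gabrb2 was higher in mature retina than in embryonic by 0.28 (adjusted p = 0.0304) and than in P1 and P6 libraries by 0.54 (adjusted p = 8.60e-05, exact permutation test). The first of these was lost when E14 replicate 3 or any E17 library was left out (adjusted p 0.0510 to 0.0861).

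**Figure D4:**
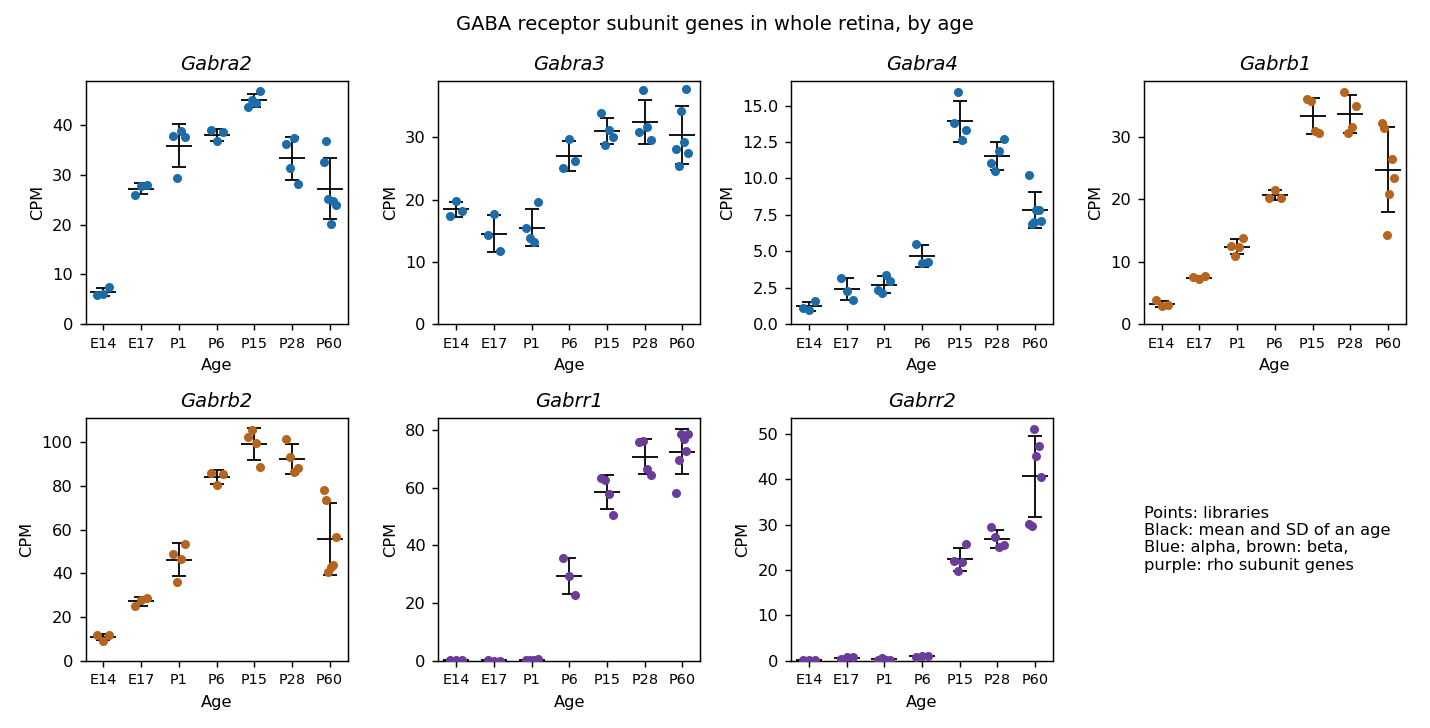
CPM of the 7 subunit genes in each library (points) by age, with mean and SD (black), each panel on its own axis from 0. Gabrb2 ran from 86.2 to 102 CPM at P28 and from 40.7 to 78.0 at P60, and Gabrr2 from 25.0 to 29.6 and from 29.7 to 51.1.

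Of the 7 genes, 6 were called higher in mature than in embryonic retina and none was called lower, whereas 14.9% of the 31760 features tested were called higher. By adjusted p alone all 7 were different, as were 75.4% of all features. In 6 of the 7 every mature library was above every embryonic library, which held for 17.4% of all features, and Gabra2 was the exception. The median log2 difference of the 7 was 2.13, beside -0.06 over all features. All 7 varied over the ages (F test), as did 83.0% of all features.

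The steps were spread over development. From E14 to E17 2 genes were called higher, Gabra2 and Gabrb2, beside 2.90% of all features, and from E17 to P1 none was called, beside 1.84% called in either direction. From P1 to P6 only Gabrr1 was called of the 7, beside 6.30% of all features called higher. From P6 to P15 Gabra4 and Gabrr2 were called higher, beside 4.74% of all features, and from P15 to P28 none was called, beside 0.384% in either direction.

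From P28 to P60 none of the 7 passed both thresholds, beside 0.453% of all features. By adjusted p alone 4 of the 7 differed (12.9% of all features), with Gabrb2 lower by 0.76 ± 0.14 (adjusted p = 0.00225), Gabra4 lower by 0.52 ± 0.15 (adjusted p = 0.0264), Gabrb1 lower by 0.47 ± 0.14 (adjusted p = 0.0334) and Gabrr2 higher as given above. In a fit of the P28 and P60 libraries alone none of the 4 had an adjusted p under 0.05 (0.107 to 0.160 for Gabrb2, Gabrr2 and Gabra4, and 0.202 for Gabrb1). For Gabrb2, Gabrb1 and Gabrr2, replicates 1 and 2 stood nearest to the P28 values. They had 78.0 and 73.7 CPM of Gabrb2 beside 40.7 to 56.6 in the others, and 32.1 and 31.4 CPM of Gabrb1 beside 14.2 to 26.4. Gabrr2 was at 30.2 and 29.7 CPM beside 40.5 to 51.1. Gabra4 differed, at 10.2 CPM in replicate 1 but 6.90 in replicate 2, the lowest P60 value. The bipolar marker sums of replicates 1 and 2 were 1519 and 1413 CPM, beside 1668 to 1870 in the other P60 libraries. The part of this in the result was not tested. Of all features called at this step, 16.7% were higher at P60 with the deposited scaling and 31.2% with median-of-ratios scaling, and under both scalings Gabrb2, Gabra4 and Gabrb1 were lower and Gabrr2 higher.

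Over the 27 libraries the log2 levels of the 7 genes were correlated to different degrees, as a description of shared age. Pearson r was highest for Gabrb1 with Gabrb2 (0.953) and for Gabra4 with Gabrb1 (0.927), was 0.893 for Gabrr1 with Gabrr2 and was lowest for Gabra2 with Gabra3 (0.281). Of 13579 features with a mean of at least 5 CPM, those nearest to Gabrr1 were Unc13b (r = 0.996), a synaptic vesicle priming factor, Wdr17 (0.995) and Gucy2f (0.995), a photoreceptor guanylate cyclase. Nearest to Gabrr2 were BC030499, Gramd2 and Usp2 (0.993 to 0.994). Nearest to Gabra2 were Lingo2, Brinp1 and Mgat4c (0.957 to 0.968), and to Gabra3 Slc25a5, Mtfr1 and Trpm1 (0.933 to 0.942), the last the cation channel of ON bipolar cells. Gabra4 was nearest to Gpr158, Gm15411 and Nebl (0.969 to 0.970), Gabrb1 to Mfap3l, LOC108167700 and Slc38a9 (0.977 to 0.985), and Gabrb2 to Cadm2, Esrrg and Ncam2 (0.980 to 0.983).

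Beside the 7 genes, 10 of 12 further GABA-A subunit genes were listed, and 6 were called higher and 2 lower in mature than in embryonic retina, where 31.0% of all features were called in either direction. Those that rose included Gabrr3 (4.35 ± 0.12), Gabrg1 (2.71 ± 0.13) and Gabrd (2.30 ± 0.14). Gabre (-2.20 ± 0.13) and Gabrq (-1.12 ± 0.18), which encode the epsilon and theta subunits, were the ones that fell, and Gabrg3 (0.68) and Gabra5 (0.49) were under the minimum change. No gene of the 7 fell alongside them.

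**Figure D5:**
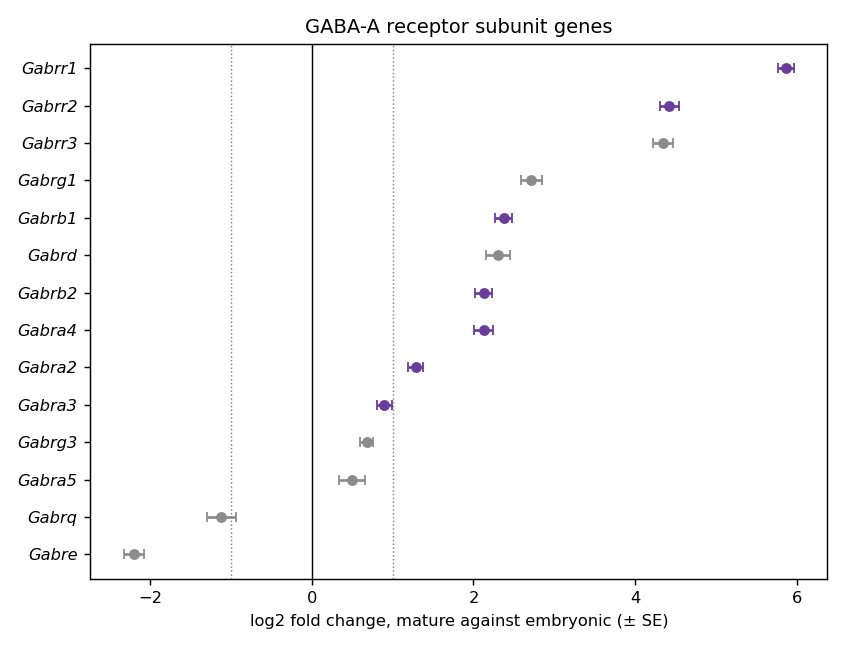
Log2 fold change between mature (P15, P28, P60) and embryonic (E14, E17) retina with SE for the 7 subunit genes followed here in purple and 7 other GABA-A receptor subunit genes in grey; dotted lines mark the minimum change of 1. Gabrr1 (5.87) and Gabrr2 (4.43) were highest of those shown, and Gabrq and Gabre were below -1.

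Of 9 genes for GABA synthesis, vesicle loading, uptake and breakdown, 5 were called higher and none lower, beside 14.9% of all features called higher. Gad1, one of the GABA-making enzymes, rose by 4.42 ± 0.06 and the vesicular transporter gene Slc32a1 by 2.83 ± 0.10, whereas Gad2 was lower by 0.64 ± 0.08, under the minimum change. Of 13 genes for receptor anchoring, assembly and trafficking, 4 were called higher, led by Insyn2a (1.64 ± 0.07) and Gabarapl1 (1.61 ± 0.07), and 1 lower, Gabarap (-1.46 ± 0.08). These 5 of 13 stand near the 31.0% of all features called in either direction. Of 6 genes of GABA-B receptors, which act through G proteins, only the auxiliary subunit gene Kctd12 was called (-1.49 ± 0.12), a smaller share than that of all features. Slc12a5, which encodes the chloride exporter KCC2 of mature neurons, rose by 4.54 ± 0.09, and Slc12a2, which encodes the importer NKCC1, differed by -0.13 ± 0.06 (adjusted p = 0.0643).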

How the data were processed

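The authors extracted total RNA from whole retina, prepared libraries with a SMARTer total RNA kit, sequenced them and aligned the reads with STAR to GRCm38 (mm10). They deposited 1 table of CPM values. The annotation and use of strand are not given in the sources used here. Reads were recovered by dividing CPM by the value of 1 read (100% whole within 0.1 reads).

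Members and gene lists were chosen with earlier results of these data known. Values were taken as log2(CPM + 1). A feature was tested if 3 or more libraries had 1 CPM or more. Age was the only factor in 1 limma 3.58.1 fit (R 4.3.3) over the 27 libraries, with its trend option. P-values are two-sided and were adjusted after Benjamini-Hochberg over 31760 features. A call required that this value was under 0.05 and that the log2 difference was 1 or more in size. The test was tried on simulated reads. Replicates are libraries, whose independence the labels do not detail, so p-values measure the spread between libraries. In each of 42 pairs of same-age libraries the counts differed beyond sampling error. Ratios between members were tested by exact permutation over libraries with adjustment over 10 tests. The 2 tests of Gabrr1 to Gabrr2 among them are not reported for lack of reads before P6. Intervals on pooled reads are 95% exact binomial intervals (scipy 1.17.1) and, like the limit of 3 reads, cover counting error only.

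Genes named are the 7 members, the other GABA-A subunit genes, from each further list the 2 largest called rises and falls with Gad1, Gad2, Slc32a1, Slc12a2 and Slc12a5, and for each member the 3 features with a Gene ID most correlated with it. Alternatives were a pseudocount of 0.1, no filter, a filter at 10 CPM on average, scaling by median of ratios, a replicate block, edgeR 4.0.16 (quasi-likelihood, TMM) on recovered reads with and without E14 replicate 1, only the ages compared, calls without a minimum fold change, summed entries of a symbol and leaving out each library. For ratios they were a pseudocount of 0.1, 0.5 added to reads, summed entries, P28 with P60 as mature, and leaving out each library. A few listed genes enter the counts and are not reported by name here. Annotation was GENCODE M21 and promoters were RefSeq GRCm38.p6.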

Additional observations from a re-analysis of the deposited data

Results flagged for a closer look

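In 28 checks of a gene within an age of 4 to 6 libraries, each on both sides, 2 libraries stood apart by Dixon's gap test, where chance marks about 1 in 20 groups. Gabra2 in P1 replicate 2 was at 29.4 CPM (233 reads), below the other P1 libraries. Gabra4 in P60 replicate 1 was at 10.2 CPM (78 reads), above the other P60 libraries. The table holds a second entry with the symbol Gabra3 that entered no comparison except where entries were summed. It had 281 reads in all, a mean of 1.24 CPM over the 27 libraries beside 25.1 CPM for the entry used, and means of 1.27 CPM in embryonic and 1.14 CPM in mature retina.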

How the results depend on the processing

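The 6 genes called higher in mature retina, with none lower, became 5 to 7 over the alternatives run, again with none lower. Without a minimum fold change 4 of the 7 passed at E17, 2 at P1, 6 at P6, 4 at P15 and 4 at P60, and 12 of 13 anchoring and 4 of 6 GABA-B genes passed between mature and embryonic retina. With a pseudocount of 0.1, 4 genes were called at E17 and 2 at P6, and 2 were called at P6 with edgeR, with or without E14 replicate 1. At a mean CPM of at least 10, Gabra4 left the test, so that 1 gene was called at P15. Of the 5 other subunit genes that remained under this filter, 4 were called between mature and embryonic retina. Leaving out single libraries gave 2 to 3 genes at E17, 2 to 3 at P15 and 0.23 to 0.32 for the mature against embryonic ratio of Gabrb1 to Gabrb2. Against P6 alone, an alternative added after the values were seen, the ratio of Gabra2 to Gabra3 differed by -0.39 (adjusted p = 0.140, exact permutation test) and that of Gabrr1 to Gabrr2 by -2.78 (adjusted p = 0.00245). Libraries with the same replicate number did not deviate together (r -0.13 to 0.17, 69 pairs, and 3 of 27 libraries closest to their own number). With a replicate block 6 genes were called higher between mature and embryonic retina, and at P60 only Gabrb2 had an adjusted p under 0.05. Over all features edgeR called 1805 at E17, 1044 at P1, 190 at P28 and 420 at P60, beside 1143, 585, 122 and 144. The cause of these differences was not tested. Levels of Gabrr1 and Gabrr2 up to P1, and of Gabrr2 at P6, rest on 0 to 9 reads a library.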
